A study of Homo sapiens with 4 samples.

Results

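FN1 encodes fibronectin, and the table of A549 cell clusters listed 9 transcripts of it, all under 1 gene ID (ENSG00000115414), out of 56389 transcripts of 16371 genes. The members were taken by gene name alone. A549 is a human lung adenocarcinoma cell line, and the clusters carried either a short hairpin construct against the phosphatase gene DUSP23 (shDUSP23, 2 libraries, labelled DUSP23 knockdown) or a control construct (shMock, 2 libraries, labelled wild type). The hairpin sequence, the number of hairpins or clones and the meaning of SUS in the sample names are not stated. Nor do the labels tell whether libraries came from separate cultures, and the spread behind each p-value may thus be technical. Values are the authors' FPKM (fragments scaled to transcript length and to library size), 1 per transcript and library, and gene values are sums over the listed transcripts. In bulk RNA, fewer cells that make a transcript and less of it per cell cannot be told apart.

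Fibronectin is a large secreted glycoprotein that forms dimers and is assembled by cells into fibrils of the extracellular matrix. Cells bind it mainly through the integrin of the alpha 5 and beta 1 chains, with the proteoglycan syndecan-4 as a co-receptor. 1 gene gives all forms by alternative splicing: the extra domains B and A (EDB and EDA) are each encoded by 1 exon that is kept or skipped, and a variable region (V, or IIICS) is kept whole, in part or not at all. Plasma fibronectin, made by hepatocytes, lacks both extra domains, whereas cellular fibronectin of matrix, wounds and tumours can carry them. The variable region holds a binding site for integrins with the alpha 4 chain.

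The segments that tell the listed transcripts apart are printed here, since every statement on isoforms rests on them. They come from the GENCODE 29 transcript sequences (build GRCh38, minus strand, written 5′ to 3′ in the sense of the mRNA). FN1 spans chr2:215360440-215436172 in that annotation, and no other annotated gene overlaps it. The EDB exon (chr2:215392931-215393203, 273 bases) has in capitals the 56 bases that lie upstream of the annotated start of FN1-213. The EDA exon (chr2:215380811-215381080, 270 bases) has in capitals its 1 match to GAAGAA, a purine-rich motif bound by SR splicing proteins. In the variable region, part 1 (chr2:215372301-215372375, 75 bases) and part 3 (chr2:215372016-215372108, 93 bases) are in capitals because they can be skipped on their own, and part 2 (chr2:215372109-215372300, 192 bases) is in lower case.
EDB exon: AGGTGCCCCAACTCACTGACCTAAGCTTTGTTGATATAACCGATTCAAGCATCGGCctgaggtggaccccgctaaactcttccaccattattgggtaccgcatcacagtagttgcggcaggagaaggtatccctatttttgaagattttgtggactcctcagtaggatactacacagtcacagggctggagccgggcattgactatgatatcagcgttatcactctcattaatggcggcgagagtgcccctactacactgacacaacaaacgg
EDA exon: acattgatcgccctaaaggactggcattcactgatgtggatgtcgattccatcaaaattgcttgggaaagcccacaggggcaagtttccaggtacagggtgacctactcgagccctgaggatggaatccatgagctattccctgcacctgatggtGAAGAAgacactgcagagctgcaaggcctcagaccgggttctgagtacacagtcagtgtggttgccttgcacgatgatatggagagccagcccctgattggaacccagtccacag
variable region part 1: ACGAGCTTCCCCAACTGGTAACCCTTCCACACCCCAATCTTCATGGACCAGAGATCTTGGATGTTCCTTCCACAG
variable region part 2: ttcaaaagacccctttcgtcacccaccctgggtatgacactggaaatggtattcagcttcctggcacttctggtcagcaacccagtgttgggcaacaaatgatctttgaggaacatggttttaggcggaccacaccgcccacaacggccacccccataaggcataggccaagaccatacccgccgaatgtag
variable region part 3: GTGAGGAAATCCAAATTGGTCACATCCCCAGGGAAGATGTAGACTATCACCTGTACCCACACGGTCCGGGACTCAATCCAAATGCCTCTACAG
GAAGAA was searched on the mRNA strand alone; it starts at base 156 of the EDA exon and does not occur in the EDB exon. It occurs in 642 of 3048 internal exons of 250 to 290 bases in the listed transcripts, or 21.1%, so such a match is common in exons of this size.

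Of the 9 transcripts, 6 were protein-coding and 3 were retained-intron models, and they differed in these segments by GENCODE 29. FN1-211 skips EDB and EDA and keeps 89 codons of the variable region (parts 1 and 2). FN1-203 keeps EDB, EDA and all 120 codons of the variable region. FN1-212 skips EDB, keeps EDA and has 64 variable codons (part 2). FN1-209 keeps EDB, skips EDA and has no variable codon, and FN1-201 keeps EDB and EDA with 89 variable codons. FN1-213 is incomplete at its 5′ end: its model starts inside EDB, skips EDA and keeps 120 variable codons. The retained-intron models are FN1-224, FN1-215 and FN1-219. For 1 transcript, FN1-203, the table's ends differ from those of GENCODE 29, so its exon content is that of the same transcript ID in another release. All these models share most of their exons, and reads from shared exons were divided between them by the authors' quantifier.

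**Figure D1:**
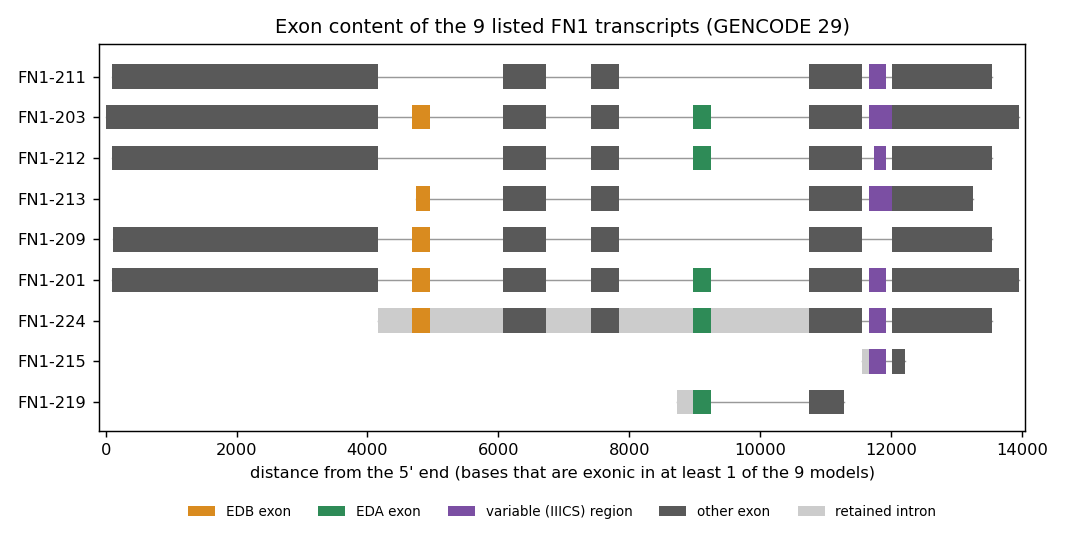
Exon content of the 9 listed FN1 transcripts in GENCODE 29. The x axis is the distance from the 5′ end in bases that are exonic in at least 1 model, filled boxes are exons, thin lines join the exons of a model, and light grey boxes are retained introns. EDB (orange), EDA (green) and the variable region (purple) separate the 6 coding models, and FN1-213 begins inside EDB.

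DUSP23 had 1.71 and 2.71 FPKM in the shDUSP23 libraries against 29.96 and 35.9 FPKM in the shMock libraries, in the direction the labels give (limma, Benjamini-Hochberg adjusted p = 3.12e-05). The estimated library totals were 26944500 and 42153200 fragments in shDUSP23 and 21233300 and 25194400 in shMock, so 1 fragment on FN1-211 was worth 0.00306 to 0.00607 FPKM. Transcripts listed at 0 numbered 4814 and 9946 in shDUSP23 and 2930 and 4334 in shMock. The deepest library, shDUSP23 replicate 2, thus had the most zeros, and the cause was not tested. About 3434 and 7090 fragments in shDUSP23 and 21301 and 19614 in shMock stood behind the FN1 sums. Over the 13691 genes tested, log2 values correlated at a Pearson's r of 0.97 between the shDUSP23 libraries, 0.99 between the shMock libraries, and 0.88 to 0.91 across the groups. All 6 epithelial markers were listed, and the keratin genes KRT8, KRT18 and KRT7 lay between 369.9 and 999 FPKM in shDUSP23 and between 449.8 and 1153 FPKM in shMock. The other epithelial markers lay below these keratin genes. CDH1, the E-cadherin gene, had 6.20 and 8.14 FPKM in shDUSP23 against 22.4 and 21.5 FPKM in shMock. EPCAM had 3.47 and 3.999 FPKM in shDUSP23 against 5.83 and 7.05 FPKM in shMock, and KRT19 had 5.73 and 8.96 FPKM in shDUSP23 against 6.02 and 7.38 FPKM in shMock. Of 10 fibroblast markers 5 were listed, and the highest of them was COL1A1, at 3.91 and 4.66 FPKM in shDUSP23 and 2.93 and 2.48 FPKM in shMock. None of 6 endothelial markers was listed, nor PTPRC among 8 leukocyte markers, of which CD14 had 0.983 and 0.995 FPKM in shDUSP23 against 4.68 and 8.005 FPKM in shMock. CD68, a lysosomal protein gene of macrophages that epithelial lines can also express, had 94.9 and 130.9 FPKM in shDUSP23 against 24.4 and 23.5 FPKM in shMock.

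FN1 fell in the shDUSP23 clusters. The summed level was 18.3 and 24.7 FPKM in the shDUSP23 libraries, against 139.98 and 117.9 FPKM in the shMock libraries. Both shDUSP23 libraries lay far below both shMock libraries; groups that do not overlap were common, at 75.5% of tested genes. The means were 21.5 ± 4.47 FPKM in shDUSP23 and 128.9 ± 15.6 FPKM in shMock (SD, n = 2 each), 5.995 times lower in shDUSP23. On the log2(FPKM + 0.5) scale the fold change, shDUSP23 minus shMock, was -2.57 (SE 0.16, 95% interval -2.94 to -2.19; limma, Benjamini-Hochberg adjusted p = 3.55e-05 over 13691 genes). Of these genes 45.3% passed an adjusted p under 0.05 and 22.2% passed as lower, so the call alone sets FN1 little apart, and its place rests on the size of the fall. By fold change FN1 ranked 51 from the largest fall, with 0.365% of tested genes falling more, and the median over all tested genes was 0.03. In levels, per length, FN1 ranked 4752 and 3641 from the top in the shDUSP23 libraries and 497 and 624 in the shMock libraries. An exact two-sided permutation test of the sum gave p = 0.333, the smallest that 2 against 2 libraries allow.

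FN1-211, the form without EDB and EDA, was the most abundant FN1 transcript in every library, with 7.74 and 7.95 FPKM in shDUSP23 against 62.7 and 50.4 FPKM in shMock. The groups lay wide apart, and the difference was -2.77 on the log2 scale (SE 0.17; limma over 37453 transcripts, Benjamini-Hochberg adjusted p = 0.0285). FN1-203, which keeps EDB, EDA and the whole variable region, had 4.06 and 3.10 FPKM in shDUSP23 against 23.99 and 19.7 FPKM in shMock. It was again lower in both shDUSP23 libraries (log2 difference -2.46, SE 0.23; limma, adjusted p = 0.0297). FN1-213, the 5′-incomplete form, had 3.17 and 4.88 FPKM in shDUSP23 against 16.7 and 14.3 FPKM in shMock (log2 difference -1.84, SE 0.27; limma, adjusted p = 0.0456). FN1-209, the form without variable codons, was listed at 0 in both shDUSP23 libraries, against 4.14 and 4.24 FPKM in shMock. A 0 in such a table can come from the division of shared reads, so no fold is given for FN1-209. Its limma adjusted p was 0.0481 with a pseudocount of 0.5 FPKM and 0.0884 with 0.1 FPKM; it rests on the pseudocount and on 2 zeros without spread, and is not read as a fall.

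Of all 37453 transcripts tested, 4.15% passed an adjusted p under 0.05, 2.45% as lower and 1.7% as higher, whereas groups without overlap were common (58.3%). FN1-211, FN1-203 and FN1-213 passed only with all 4 libraries. Their limma adjusted p lay between 0.237 and 0.28 without shMock replicate 1, between 0.29 and 0.316 without shMock replicate 2, at 0.0881 without shDUSP23 replicate 1 and at 0.114 without shDUSP23 replicate 2. In each of these fits 0 of all transcripts passed. FN1-211, FN1-203 and FN1-213 also did not pass without the trend (limma, adjusted p = 0.112 to 0.123), nor FN1-213 with a pseudocount of 0.1 FPKM (0.0524), without a filter (0.0669) or with equal FPKM sums (0.0745). The log2 differences themselves kept their sign, between -2.92 and -2.47 for FN1-211 and between -2.63 and -2.21 for FN1-203 over 15 alternatives.

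The remaining coding transcripts differed between libraries of 1 group. FN1-212, with EDA and without EDB, had 2.08 and 7.30 FPKM in shDUSP23 against 21.6 and 12.5 FPKM in shMock. The groups did not overlap, but replicate 2 of shDUSP23 was more than 3 times replicate 1, and the difference of -1.92 (SE 0.62) did not pass (limma, adjusted p = 0.155). FN1-201 had 0.26 and 0 FPKM in shDUSP23 against 2.22 and 0.0273 FPKM in shMock, fell under the filter of a mean of at least 1 FPKM and was not tested. It is the only FN1 transcript whose groups overlapped. FN1-209, FN1-215, FN1-219 and FN1-224 averaged under 1 FPKM in shDUSP23 and passed the filter through their shMock values, so the number of FN1 transcripts that passed the test is a description only.

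The retained-intron models also had lower values in both shDUSP23 libraries than in either shMock library. FN1-224, a long model with introns kept around EDB and EDA, had 0.20 and 0.40 FPKM in shDUSP23 against 2.77 and 2.66 FPKM in shMock (limma, adjusted p = 0.0954). FN1-215, at the variable region, had 0 and 1.04 FPKM in shDUSP23 against 2.72 and 7.56 FPKM in shMock, or 0 and 25 fragments against about 32.9 and 108.8 (limma, adjusted p = 0.148). FN1-219, at EDA, had 0.84 and 0 FPKM in shDUSP23 against 3.20 and 6.44 FPKM in shMock (limma, adjusted p = 0.109). The groups of each model did not overlap, and none of the differences passed. Summed, the retained-intron models had 1.04 and 1.44 FPKM in shDUSP23 and 8.69 and 16.7 FPKM in shMock. In these models shMock replicate 2 was the highest library in sum, although it had the lower FN1 total of the shMock libraries.

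**Figure D2:**
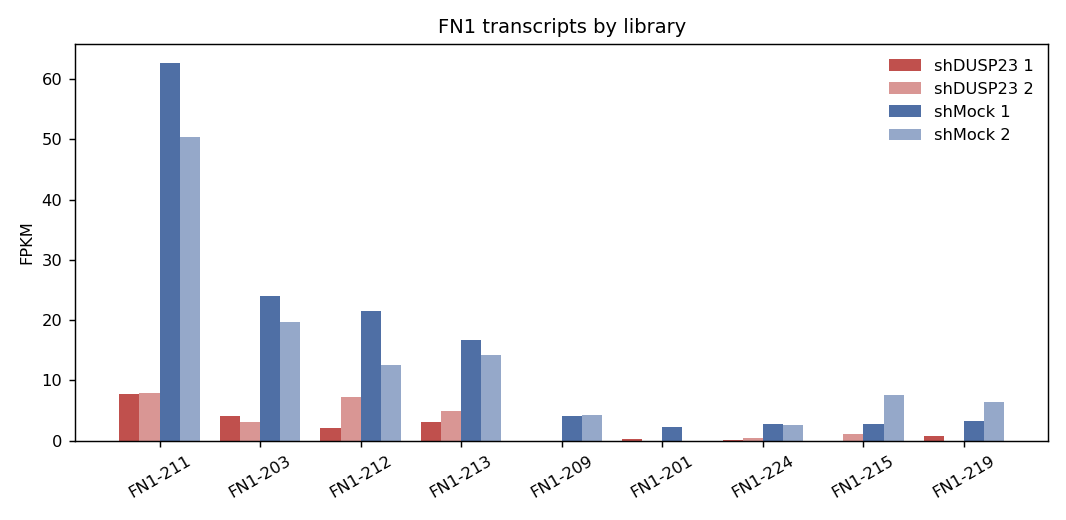
FPKM of each FN1 transcript (y axis) in each library, with shDUSP23 bars (red) left of shMock bars (blue). FN1-211 leads in every library, at 7.74 and 7.95 FPKM in shDUSP23 and 62.7 and 50.4 FPKM in shMock, and FN1-209 has no shDUSP23 bar because it is listed at 0.

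No change in the make-up of FN1 passed a test. FN1-211 made 42.2% and 32.2% of the FN1 sum in shDUSP23 against 44.8% and 42.8% in shMock. FN1-203 made 22.1% and 12.6% in shDUSP23 against 17.1% and 16.7% in shMock, so its shDUSP23 values lay on both sides of shMock. FN1-212 made 11.3% and 29.6% in shDUSP23 against 15.4% and 10.6% in shMock, the widest spread within a group of any FN1 transcript. FN1-213 made 17.3% and 19.8% in shDUSP23 against 11.9% and 12.1% in shMock. FN1-209 made 0% in both shDUSP23 libraries against 2.96% and 3.59% in shMock. FN1-201, FN1-224, FN1-215 and FN1-219 each made between 0% and 6.41% in every library.

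Shares were tested as the log2 ratio of a transcript to the other transcripts of its gene, over 34525 transcripts of genes with more than 1 listed transcript. None of the 8 FN1 transcripts tested passed for a change in share (limma, smallest Benjamini-Hochberg adjusted p = 0.586, for FN1-213). The background was 0% as well: 0 of all shares passed in limma, 3141 had an unadjusted p under 0.05, and limma's diffSplice called 302 of 32628, or 0.926%, with 0 of them in FN1. For FN1-213 the log2 ratio changed by 0.83, with a 95% interval of -0.23 to 1.88 that includes 0. For FN1-209 the change was -0.71 and depended on the pseudocount, at -2.88 with 0.1 FPKM and 0.12 with 1 FPKM. The 95% interval, not adjusted for the number of shares, was -1.43 to 0.69 for FN1-211 and -1.21 to 1.43 for FN1-203. These bounds are not limits of detection. As 0 of all shares passed in the ratio test, the lack of a call for FN1 there says little. In the gene-level F test of diffSplice, which asks whether any transcript of a gene moved apart from the others, FN1 had an adjusted p of 0.882, and 1.68% of 8448 genes passed.

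Grouped by exon, the coding forms with EDA summed to 6.40 and 10.4 FPKM in shDUSP23 against 47.8 and 32.3 FPKM in shMock, and those without EDA to 10.9 and 12.8 FPKM in shDUSP23 against 83.5 and 68.9 FPKM in shMock. The mean was 4.76 times lower in shDUSP23 for the forms with EDA and 6.43 times lower for those without it. EDA forms thus made 37.0% and 44.8% of the coding sum in shDUSP23 and 36.4% and 31.9% in shMock, a difference of 6.75 percentage points. The groups did not overlap, but the nearest libraries lay less than 1 percentage point apart, and the exact two-sided permutation test gave p = 0.333, the smallest possible here. EDB forms, counting FN1-213, made 43.3% and 34.3% of the coding sum in shDUSP23 and 35.8% and 37.8% in shMock. The shMock libraries lay between the shDUSP23 libraries (exact two-sided permutation test, p = 1). Without FN1-213, whose model is incomplete at the 5′ end, EDA forms made 45.3% and 56.7% of the coding sum in shDUSP23 and 41.7% and 37.1% in shMock. On the same basis EDB forms made 30.6% and 16.9% in shDUSP23 and 26.5% and 27.6% in shMock.

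In the variable region, forms with all 120 codons made 41.8% and 34.3% of the coding sum in shDUSP23 and 30.99% and 33.6% in shMock. Forms with 89 codons made 46.2% and 34.2% in shDUSP23 and 49.4% and 49.9% in shMock. The single form with 64 codons, FN1-212, made 12.01% and 31.4% in shDUSP23 and 16.4% and 12.4% in shMock. The 120-codon and 89-codon shares did not overlap between the groups and the 64-codon share did. None of the 3 could pass an exact test of 2 against 2 libraries. The 120-codon forms are FN1-203 and FN1-213, and the latter is the incomplete model. FN1-203 alone made 22.1% and 12.6% of the FN1 sum in shDUSP23 and 17.1% and 16.7% in shMock, so its groups overlapped. FN1-213 made 17.3% and 19.8% in shDUSP23 and 11.9% and 12.1% in shMock. The 120-codon separation thus rests on FN1-213, and the variable-region shares were not recomputed without it. Retained-intron models made 5.68% and 5.84% of the FN1 sum in shDUSP23 and 6.21% and 14.1% in shMock, where replicate 2 alone stood high. That difference of -4.41 percentage points was -0.449 without shMock replicate 2 and -8.38 without shMock replicate 1.

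**Figure D3:**
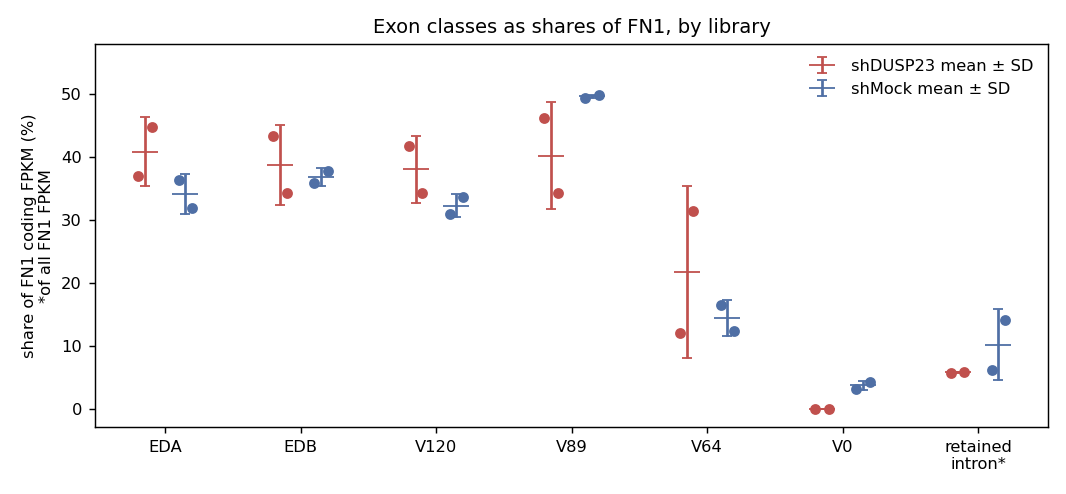
Shares of FN1 by exon class (y axis, % of the coding FPKM, or of all FN1 FPKM for retained introns), with libraries as points and the mean ± SD of 2 libraries as bars, shDUSP23 (red) left of shMock (blue). The EDA share is 37.0% and 44.8% in shDUSP23 and 36.4% and 31.9% in shMock, and the EDB share of shMock lies within the spread of shDUSP23.

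Genes linked to fibronectin were read from lists, each set against the background of 23.1% of tested genes called higher and 22.2% called lower. Of the receptor list 5 members rose and 1 fell of 11 tested (median log2 fold change 0.43, against 0.03 over all genes). ITGA5, the alpha chain of the main fibronectin receptor, had 173 and 196.7 FPKM in shDUSP23 against 58.4 and 44.8 FPKM in shMock (log2 fold change 1.84, SE 0.15; limma, Benjamini-Hochberg adjusted p = 8.13e-05). SDC4, the syndecan-4 co-receptor, rose by a like amount, with 268 and 289.9 FPKM in shDUSP23 against 79.96 and 73.2 FPKM in shMock (log2 fold change 1.86, SE 0.11; limma, adjusted p = 3.12e-05). CD44, mainly a hyaluronan receptor, had 720.5 and 684 FPKM in shDUSP23 against 379.6 and 369.7 FPKM in shMock (log2 fold change 0.91; limma, adjusted p = 0.000482). ITGB1, the beta chain that pairs with alpha 5, fell to 376 and 378 FPKM in shDUSP23, against 624 and 590.2 FPKM in shMock (log2 fold change -0.69; limma, adjusted p = 0.00171). Under quantile normalization ITGB1 had a log2 fold change of 0.04 (adjusted p = 0.754), so its direction depends on the scaling. On the deposited scale the chains of the main receptor thus moved in opposite directions, ITGA5 against FN1 and ITGB1 with it. Without shDUSP23 replicate 2, 2 receptor genes fell.

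Of genes of matrix partners and assembly 9 rose and 3 fell of 21 tested (median 0.47). LAMB3, a chain of the basement membrane protein laminin-332, had 101.7 and 126.8 FPKM in shDUSP23 against 22.2 and 19.7 FPKM in shMock (log2 fold change 2.41). COL5A1 and COL6A2, collagen chains found beside fibronectin fibrils, also rose. COL5A1 averaged 12.5 FPKM in shDUSP23 and 1.78 FPKM in shMock (log2 fold change 2.47), and COL6A2 28.6 FPKM in shDUSP23 and 8.24 FPKM in shMock (log2 fold change 1.73). The members that fell were IGFBP3, COL4A2 and TGM2. IGFBP3, a secreted binder of insulin-like growth factors, had 59.98 and 51.9 FPKM in shDUSP23 against 225.7 and 213 FPKM in shMock (log2 fold change -1.97). COL4A2, a basement membrane collagen chain, had 19.7 and 20.3 FPKM in shDUSP23 against 52.7 and 40.9 FPKM in shMock. TGM2, a transglutaminase that binds and crosslinks fibronectin, had 80.4 and 97.4 FPKM in shDUSP23 against 116.2 and 131.5 FPKM in shMock, a log2 fold change of -0.48. Its call was lost without shMock replicate 2 (limma, adjusted p = 0.112) or shDUSP23 replicate 1 (0.108), under quantile normalization (0.0601), without the trend (0.0745) and with equal FPKM sums (log2 fold change -0.15, adjusted p = 0.377).

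Of proteases that act on fibronectin and their inhibitors 8 rose and 2 fell of 13 tested (median 0.94). MMP9, counted among those that rose, had 1.79 and 2.23 FPKM in shDUSP23 against 0.66 and 0.34 FPKM in shMock. MMP9 and TIMP3, which was not called, averaged under 1 FPKM in shMock and passed the filter through their shDUSP23 values. The count and median of this list are therefore a description only. TIMP2 and TIMP1, inhibitors of matrix metalloproteinases, averaged 70.2 and 418 FPKM in shDUSP23 against 19.5 and 195.5 FPKM in shMock. CTSB, a cysteine cathepsin gene, averaged 344 FPKM in shDUSP23 and 136.7 FPKM in shMock. MMP7, a metalloproteinase gene, fell to 6.36 and 8.82 FPKM in shDUSP23, against 22.7 and 30.8 FPKM in shMock (log2 fold change -1.75), and HTRA1, a serine protease gene, was the other that fell. HTRA1, with a log2 fold change of -0.67, lost its call without shMock replicate 1 (limma, adjusted p = 0.118) and with equal FPKM sums (log2 fold change -0.35, adjusted p = 0.173), and 1 member of the list then fell.

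Of focal adhesion linkers, which connect integrins to actin, 10 rose and 3 fell of 23 tested (median 0.51). Paxillin (PXN) averaged 60.9 FPKM in shDUSP23 and 30.9 FPKM in shMock, and zyxin (ZYX) 69.1 FPKM in shDUSP23 and 31.9 FPKM in shMock. ILK, the integrin-linked pseudokinase, averaged 74.2 FPKM in shDUSP23 and 39.7 FPKM in shMock, and filamin A (FLNA) 194.1 FPKM in shDUSP23 and 114.1 FPKM in shMock. These 4 log2 fold changes lay between 0.76 and 1.11. The members that fell were RSU1, NEDD9 and TNS4, with log2 fold changes of -0.78, -0.67 and -0.54. NEDD9 lost its call without shMock replicate 1 (limma, adjusted p = 0.101) and with equal FPKM sums (log2 fold change -0.35, adjusted p = 0.151). TNS4 lost its call without shMock replicate 2 (limma, adjusted p = 0.192), shDUSP23 replicate 1 (0.0732) or the trend (0.0699), and with equal FPKM sums (log2 fold change -0.21, adjusted p = 0.302).

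Of regulators of alternative splicing, among them proteins reported to act on the EDA and EDB exons, 2 rose and 13 fell of 23 tested (median -0.46). HNRNPA1, an hnRNP that promotes exon skipping, had 149 and 161.9 FPKM in shDUSP23 against 479 and 493 FPKM in shMock (log2 fold change -1.64, SE 0.11; limma, adjusted p = 4.12e-05). SRSF7, an SR protein gene, had 48.7 and 40.3 FPKM in shDUSP23 against 121.9 and 125 FPKM in shMock (log2 fold change -1.47). TRA2B, an SR-like activator of purine-rich exons, had 35.2 and 26.6 FPKM in shDUSP23 against 92.9 and 97.4 FPKM in shMock (log2 fold change -1.62). HNRNPA2B1 averaged 196.5 FPKM in shDUSP23 and 404 FPKM in shMock. QKI and SRSF4 were the 2 that rose, with log2 fold changes of 0.95 and 0.44. SRSF4 lost its call, which leaves 1 member that rose, when shMock replicate 1 (limma, adjusted p = 0.059), shMock replicate 2 (0.218) or shDUSP23 replicate 1 (0.0912) was left out. SRSF4 also lost it with median-ratio rescaling (limma, adjusted p = 0.0533), without the trend (0.0765) and with coding transcripts alone (0.0536). Their relation to the FN1 exon shares was not tested.

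Of liver-type plasma protein genes, chosen because plasma fibronectin is made in the liver, 0 rose and 6 fell of 11 tested (median -0.71). The list was chosen with the fall of the fibrinogen genes already known, and so is not independent evidence of its direction. The fibrinogen genes FGB, FGG and FGA had log2 fold changes of -3.60, -3.71 and -2.91, each a larger fall than that of FN1. APOH, which encodes a plasma glycoprotein that binds phospholipids, had 2.24 and 4.40 FPKM in shDUSP23 against 13.1 and 20.7 FPKM in shMock (log2 fold change -2.22).

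Of genes of the TGF-beta pathway and other regulators of FN1 transcription 6 rose and 1 fell of 22 tested (median 0.25). TWIST1, which was not called, averaged 0.99 FPKM in shMock and 1.27 FPKM in shDUSP23, and passed the filter through its shDUSP23 values. The count and median of this list are therefore a description only. SMAD7, an inhibitor of TGF-beta signalling that is also its target, had 10.1 and 11.2 FPKM in shDUSP23 against 5.58 and 3.73 FPKM in shMock (log2 fold change 1.13; limma, adjusted p = 0.00388). TGFB1, ZEB2 and SMAD4 had log2 fold changes of 0.67, 0.77 and 0.48. TGFBR2, a receptor of the same pathway, was the member that fell (log2 fold change -0.37) and lost its call when any 1 library was left out (limma, adjusted p = 0.0509 to 0.154). TGFBR2 also lost it under quantile normalization (limma, adjusted p = 0.073), without the trend (0.0915), with coding transcripts alone (0.104) and with equal FPKM sums (log2 fold change -0.04, adjusted p = 0.836). Without shMock replicate 2, 1 member of this list rose, and TGFB1, ZEB2 and SMAD4 no longer passed (limma, adjusted p = 0.0716, 0.0971 and 0.114). SMAD4 also lost its call without shDUSP23 replicate 2 (limma, adjusted p = 0.0675) and without the trend (0.0588). With TGFBR2 not passing, 0 members fell in fits that left out shMock replicate 1, shDUSP23 replicate 2 or shMock replicate 2.

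The counts of these lists depended on the rescaling setting more than the call of FN1 did. With all libraries rescaled to equal FPKM sums, the median of all tested genes was 0.37, and 76.2% of called genes were higher in shDUSP23, against 51.0% on the deposited scale. The common sum was set above the deposited sums, so the filter of 1 FPKM and the pseudocount of 0.5 FPKM weighed less. More genes were tested, 14951 against 13691, and the counts differ by more than scaling alone. Of all 14951 genes tested on that scale, 5374 were called higher and 1682 lower. Receptors gave 8 higher and 1 lower of 11 tested, matrix partners 14 and 2 of 21, and adhesion linkers 14 and 1 of 23. Splicing regulators gave 3 and 9 of 23, plasma proteins 2 and 5 of 11, and transcriptional regulators 12 and 0 of 22. Proteases gave 11 and 1 of 17 tested, a larger set than the 13 tested on the deposited scale. FN1 had a log2 fold change of -2.25 on that scale.

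**Figure D4:**
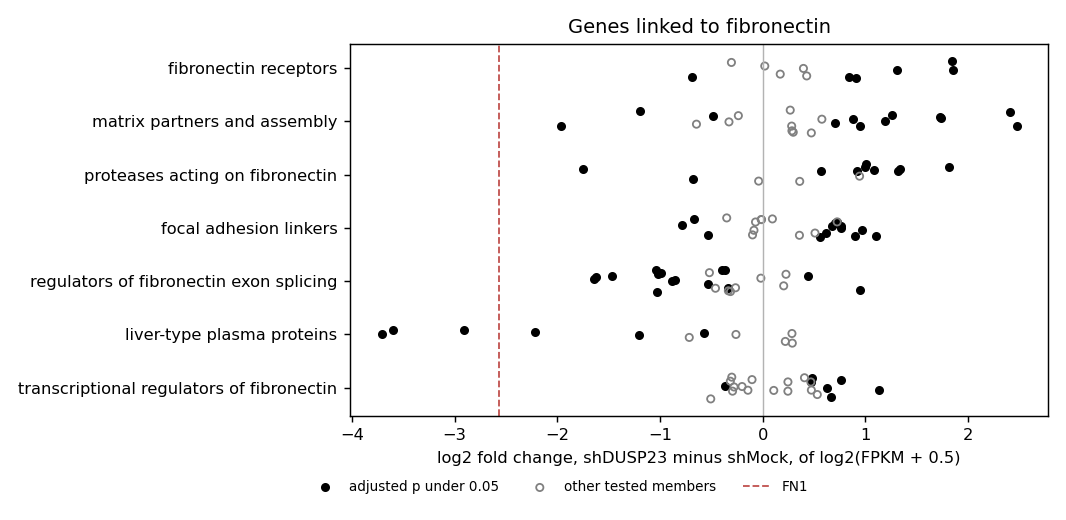
Log2 fold change (x axis, shDUSP23 minus shMock, of log2 of FPKM + 0.5) of every tested member of 7 gene lists; filled points passed a limma adjusted p under 0.05 and open points did not. The dashed line marks FN1 at -2.57, beyond which lie FGB, FGG and FGA among the listed genes.

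Genes with the profile most like that of FN1 were sought by the Euclidean distance between log2 profiles over the 4 libraries, each centred on its mean, among 7369 genes averaging 10 FPKM or more. The nearest were CHCHD3, a mitochondrial inner membrane organising gene (distance 0.13), C20orf27 (0.22), ACOX2, a peroxisomal oxidase gene of bile acid synthesis (0.30), TOP2A, DNA topoisomerase II alpha (0.31), and TFAM, the mitochondrial transcription factor (0.32). CHCHD3 had 6.79 and 8.55 FPKM in shDUSP23 against 48.2 and 44.8 FPKM in shMock. ACOX2 had 4.28 and 4.45 FPKM in shDUSP23 against 28.6 and 27.8 FPKM in shMock. With 4 libraries in 2 groups, such nearness says little more than a fall of like size with a like spread.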

How the data were processed

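RNA-seq of 2 shDUSP23 and 2 shMock libraries of A549 cell clusters was analysed. The deposited values were FPKM per transcript, computed by the authors; per the submitters' processing notes, STAR 2.7.1a, DESeq2 1.32.0 and build GRCh38 were used. Strandedness, filters, the quantifier and its annotation are not stated. Samples were grouped by their titles.

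FPKM were summed per gene ID. Genes, and separately transcripts, with a mean of at least 1 FPKM were compared in R 4.3.3 by limma 3.58.1 (two-sided moderated test with a trend) of log2(FPKM + 0.5), with Benjamini-Hochberg adjustment over all features and a threshold of 0.05. Shares were tested as log2((transcript + 0.5)/(other transcripts of the gene + 0.5)). Fold changes understate changes of low values. Exon content and lengths came from GENCODE 29, which held 93.7% of the listed transcripts. Library totals came from the steps of 1 fragment in low FPKM values of 2744 single-transcript genes, of which 99.9% to 100% were whole (tolerance 0.1 fragment, values up to 50 fragments); FN1 fragments are approximate and cover counting error only. Count models were not run.

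The members, lists and rules were chosen with earlier results of these data known. Named were FN1 and its transcripts, DUSP23, per list the 4 members of smallest p, called members moving against their list's majority, and the 5 genes nearest in profile. Markers were named from their lists. Alternatives were pseudocounts, filters, rescaling, eBayes settings, coding transcripts alone, diffSplice, a block for the replicate number, and each library left out in turn. EDA and EDB shares without FN1-213 were added after the data were seen. Procedures were tested on simulated data. Tables and figures were made with pandas 2.3.3, numpy 2.4.6 and matplotlib 3.10.9 under Python 3.11.15.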

Additional observations from a re-analysis of the deposited data

How the results depend on the processing

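The fall of FN1 passed under all 15 alternatives run (limma, largest Benjamini-Hochberg adjusted p = 0.00252), with log2 fold changes from -2.77 to -2.25. With 1 library left out in turn, FN1 gave -2.77 to -2.36, the EDA difference 2.86 to 10.6 percentage points, the EDB difference -2.50 to 6.48 and the retained-intron difference -8.38 to -0.449; called genes numbered 3464 (without shMock replicate 2) to 6442 against 6202, and 4038 without shMock replicate 1. Called transcripts numbered 0 to 0 in these 4 fits, and so did those of FN1. The count of called transcripts, 1554 with all libraries, was 463 without a filter, 3408 at a mean of at least 5 FPKM, 942 with equal sums and 0 without a trend or with the replicate number as a block. Of FN1 transcripts, 4 of which passed (FN1-209 through its zeros), 2 did so with a pseudocount of 0.1 FPKM, 2 without a filter, 2 with equal sums, and 0 without a trend or with the replicate block. The cause was not tested. diffSplice called 302 transcript shares where the ratio test called 0. Replicate numbers are not stated to mark shared cultures; the correlation of same-numbered deviations over genes was 0.053. With the replicate block 6707 of 13691 genes were called, against 6202 without it, and 77 list members, against 69. FN1 gave -2.57 with the block. ITGB1 changed sign, to a log2 fold change of 0.043, with quantile normalization. In 121 alternative fits of FN1 shares 0 passed. Under the alternatives of the ratio test 0 of all shares passed as well, so only the diffSplice fits could set FN1 apart. Of 703 alternative values of single genes and transcripts that passed with the settings of the report, 639 kept their call, 63 lost it and 1 reversed. Most of these genes were named for a small p or for nearness to FN1 in the same data, which favours kept calls. Of 175 for those that did not pass, 0 gained a call and 11 changed sign without one, and of 210 list counts 24 moved over 1.5 times. FN1-201, FN1-215 and FN1-219 had about 0 to 410.2 fragments per library. These low values did not follow depth. shDUSP23 replicate 2, the deepest library, had 0 fragments for FN1-201 and FN1-219, against about 61.9 and 24 in shDUSP23 replicate 1.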
